A study of Mus musculus with 8 samples.

Results

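Dbp, Tef and Hlf encode the PAR bZIP factors, named for a region rich in proline and acidic amino acids beside a basic leucine zipper, and Nfil3 encodes the related repressor also called E4BP4. The 4 genes were taken by symbol from a table of 48432 genes in mouse liver, and all 4 carried a complete estimate in all 8 libraries and were among the 11316 genes tested. The livers came from wild-type C57BL/6 mice after 30 weeks of exposure, with 2 libraries in each of 4 groups. Animals in LD-FA had a light/dark cycle and filtered air, those in LD-PM2.5 the same cycle and PM2.5, fine particulate matter that is breathed deep into the lung, those in LL-FA constant light and filtered air, and those in LL-PM2.5 constant light and PM2.5. The question is what polluted air does to the liver clock, with constant light as a second disturbance. Age, sex and the hour of collection are not stated in the sources used here. It is likewise not stated that 2 libraries of a group were 2 animals, so their spread, and the p-values with it, may be technical.

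DBP, TEF and HLF switch genes on through the D-box, a short DNA element, and NFIL3 switches genes off through the same element. In liver the activators peak at one phase of the day and NFIL3 at the opposite one, because Dbp is driven by the clock proteins CLOCK and BMAL1 through E-boxes, whereas Nfil3 is held down by the REV-ERB nuclear receptors. Known D-box targets include clock genes such as the Period genes, and the PAR bZIP factors also support liver genes of drug metabolism, heme synthesis and fatty acid handling.

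Dbp lies on chromosome 7 from 45705088 to 45710203 (plus strand), Tef on chromosome 15 from 81802421 to 81826863 (plus strand), Hlf on chromosome 11 from 90336536 to 90390895 (minus strand) and Nfil3 on chromosome 13 from 52967209 to 52981073 (minus strand), in GENCODE vM21 on GRCm38. The annotation gives 5 transcripts for Dbp, 10 for Tef, 6 for Hlf and 1 for Nfil3. Dbp shares 539 exonic bases with Sphk2, a sphingosine kinase gene on the other strand, and strand-specific counting is not given in the sources used here. Sphk2 stood between 17.2 and 21.4 FPKM in all 8 libraries (FPKM being fragments scaled to transcript length and depth), with log2 fold changes between -0.10 and 0.09 over the 9 comparisons, while Dbp ranged over 26.4-fold. Tef shares 193 bases with the antisense gene Gm17597, which had at most 3 fragments in any library.

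The stretches of sequence around the RefSeq start sites are shown because Dbp and Tef had one order of group means and Nfil3 another, so that a reader can see which elements these windows hold and which they do not. Promoter windows of 300 bases, 250 before the start to 50 after it, were found for all 4 members (5 windows, Tef having 2 starts; RefSeq, GRCm38.p6). They were searched on both strands for the E-box CACGTG, a D-box TTANGTAA, the core of REV-ERB and ROR elements TAGGTCA, and the cAMP element TGACGTCA, none of which overlapped another where found. Capitals mark the matches, each sequence reads 5′ to 3′ on the strand of its gene, and bases inside annotated exons are left out beyond sites of 30 bases.
Dbp, chr7:45704997-45705087, no match: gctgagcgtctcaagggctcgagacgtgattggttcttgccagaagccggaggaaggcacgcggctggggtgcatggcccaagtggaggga
Tef, first start, chr15:81802534-81802563, E-box: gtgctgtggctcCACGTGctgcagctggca
Tef, second start, chr15:81811164-81811413, E-box: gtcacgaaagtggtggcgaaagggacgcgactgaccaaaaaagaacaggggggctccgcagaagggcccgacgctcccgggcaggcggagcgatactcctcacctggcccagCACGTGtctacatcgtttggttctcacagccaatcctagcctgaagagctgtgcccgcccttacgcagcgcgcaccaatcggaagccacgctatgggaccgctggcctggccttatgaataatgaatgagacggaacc
Hlf, chr11:90390918-90391167, cAMP element: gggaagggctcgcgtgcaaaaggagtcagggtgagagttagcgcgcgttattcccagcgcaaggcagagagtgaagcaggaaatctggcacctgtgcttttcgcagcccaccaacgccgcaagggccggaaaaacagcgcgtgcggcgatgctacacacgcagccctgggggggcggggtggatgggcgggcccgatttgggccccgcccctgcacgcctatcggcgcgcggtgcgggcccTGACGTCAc
Nfil3, chr13:52981034-52981063, REV-ERB and ROR core on the opposite strand: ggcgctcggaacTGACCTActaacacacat

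Both Tef starts held an E-box, beginning 127 and 138 bases before the start, and an E-box occurs in 7.15% of the 32851 promoter windows of this length. The Dbp window held none of the 4 motifs. The Nfil3 match to the REV-ERB and ROR core began 12 bases before the start, and 2.61% of windows hold that motif. The Hlf match to the cAMP element began 9 bases before the start, against 1.79% of windows. No member's window held the D-box (2.32% of windows). A match describes these letters only, and its absence says nothing about a factor's binding elsewhere in the gene.

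Fragments per library ran from 22214720 to 31819109. Of 6 hepatocyte markers 5 were measured, since albumin carried no complete estimate, and they summed to between 19100 and 23590 FPKM. LD-FA replicate 1 held 3373 FPKM of pancreas acinar markers (8 of 8 measured), LL-PM2.5 replicate 2 held 329 and LD-PM2.5 replicate 1 held 121, against 17.8 to 34.7 elsewhere. LL-FA replicate 1 held 448 FPKM of skeletal muscle markers (6 of 6), LD-FA replicate 1 held 238 and its partner 25.6, against 0.504 to 1.18 elsewhere. Adipocyte markers (4 of 4) reached 37.8 FPKM in LL-FA replicate 1 and 1.94 to 11.5 elsewhere. Natural killer and T cell markers, of interest because Nfil3 also acts in lymphocytes, stayed between 0.691 and 2.71 FPKM over 5 genes. LD-FA replicate 1 and LL-FA replicate 1 are called the muscle-rich pair of libraries, and for some comparisons values are also given with both left out. In bulk liver, fewer cells of a type and less RNA per cell cannot be told apart.

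Dbp, the factor with the widest swing among the 4, was lowest in LD-FA and highest in LL-PM2.5. LD-FA stood at 2.77 and 2.05 FPKM (replicates 1 and 2), LL-FA at 3.86 and 9.08, LD-PM2.5 at 9.12 and 13.0, and LL-PM2.5 at 32.9 and 54.0. No 2 groups overlapped, although LL-FA replicate 2 and LD-PM2.5 replicate 1 were nearly level. Group means were 2.41 ± 0.509 FPKM (SD, n = 2), 6.47 ± 3.69, 11.1 ± 2.74 and 43.5 ± 15.0 in that order. Over the 8 libraries 0.919% of tested genes had a larger SD of log2 CPM than Dbp's 1.67, where CPM is fragments relative to the scaled library total and the median of all genes was 0.20. Between any 1 pair of groups, 30.0% to 49.4% of tested genes did not overlap in CPM. The share of genes without overlap in every pair was not counted.

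Tef, which shares the D-box with DBP, was lowest in LD-FA as well, but its highest library was in LD-PM2.5. LD-FA read 7.10 and 8.82 FPKM, LL-FA 14.8 and 16.3, LD-PM2.5 13.4 and 34.6, and LL-PM2.5 30.4 and 24.4. LD-FA lay below all other groups, and LD-PM2.5 overlapped both constant-light groups because its replicates lay on either side of theirs. Taken 1 pair at a time, LD-FA and another group did not overlap in CPM for 30.2% to 49.4% of tested genes. Group means in that order were 7.96 ± 1.22 FPKM (SD, n = 2), 15.5 ± 1.05, 24.0 ± 15.0 and 27.4 ± 4.23.

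Hlf, the third activator, varied least. LD-FA read 6.75 and 6.83 FPKM, LL-FA 9.05 and 6.36, LD-PM2.5 7.18 and 10.6, and LL-PM2.5 10.2 and 6.02, a span of 1.76-fold. In every group but LD-FA the replicates differed by more than the group means did, which lay between 6.79 and 8.90 FPKM. The FPKM of Hlf also carries a difference between replicates that its fragments do not. At equal CPM its FPKM was 1.21 to 1.33 times higher in replicate 1 than in replicate 2 of each group, where the median of all genes was 1.03 to 1.1. The same ratio was 1.04 to 1.1 for Tef, 0.934 to 1.07 for Nfil3 and 0.794 to 0.990 for Dbp. In CPM, Hlf read 44.6 and 54.5 for LD-FA, 56.5 and 51.1 for LL-FA, 45.4 and 81.7 for LD-PM2.5, and 64.7 and 50.7 for LL-PM2.5, so LD-PM2.5 replicate 2 stood above the other 7 libraries and all groups overlapped.

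Nfil3, the repressor, followed another order, with its highest values in LD-PM2.5 and its lowest in LL-PM2.5. From the top, LD-PM2.5 read 20.9 and 26.7 FPKM, LD-FA 13.7 and 16.8, LL-FA 12.0 and 12.6, and LL-PM2.5 11.0 and 9.34. No 2 groups overlapped, and all 4 light/dark libraries lay above all 4 constant-light libraries. In CPM, 30.0% to 49.4% of all tested genes did not overlap between any 1 pair of groups. The light regimes separated in CPM in 3.18%. Group means from the top were 23.8 ± 4.08 FPKM (SD, n = 2), 15.3 ± 2.19, 12.3 ± 0.372 and 10.2 ± 1.15. In LD-PM2.5, where Nfil3 was highest, neutrophil markers (4 of 4) summed to 6.56 and 12.4 FPKM against 3.02 to 5.70 elsewhere, and erythroid markers (5 of 5) to 107 and 115 against 126 to 227. The neutrophil sum there was almost all S100a8 and S100a9, with Ngp and Camp at or near 0. Among the erythroid markers the globin genes were lower, while Alas2 read 69.3 and 69.7 FPKM against 65.9 to 81.3 elsewhere. The part of these markers in the values of Nfil3 was not tested.

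**Figure D1:**
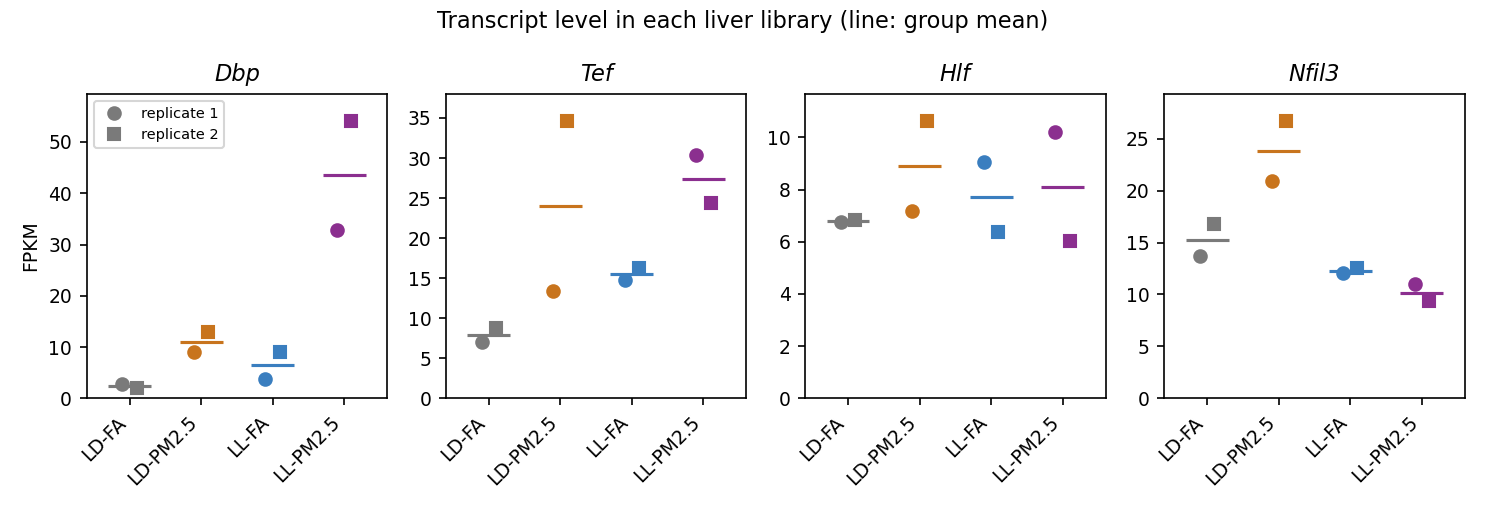
FPKM (y axis, from 0, a separate scale in each panel) of Dbp, Tef, Hlf and Nfil3 in each of the 8 libraries, grouped on the x axis; circles are replicate 1, squares replicate 2 and lines the group means. Dbp reached 32.9 and 54.0 in LL-PM2.5 against 2.77 and 2.05 in LD-FA, and Nfil3 was highest in LD-PM2.5 at 20.9 and 26.7.

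Neighbours in the order of levels were set against each other with the edgeR quasi-likelihood test, adjusted over all 11316 genes, and no neighbouring pair of any member passed. For Dbp the steps were 1.43 ± 0.38 (log2 fold change ± SE) from LD-FA to LL-FA (adjusted p = 1), 0.78 ± 0.37 from LL-FA to LD-PM2.5 (adjusted p = 0.558) and 2.03 ± 0.37 from LD-PM2.5 to LL-PM2.5 (adjusted p = 0.366). The steps of Tef were 1.0 ± 0.40, 0.59 ± 0.40 and 0.22 ± 0.40 in the same order of groups, and only the first joined groups that did not overlap. For Hlf all 3 steps between neighbours lay between 0.10 and 0.14 with overlapping libraries. For Nfil3, from the lowest group to the highest, the steps were 0.26 ± 0.17, 0.29 ± 0.17 and 0.66 ± 0.17.

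LD-PM2.5 was first set against LD-FA, the effect of particles with a normal light cycle. All comparisons draw on the same 8 libraries, and those that name the same group share its libraries. Dbp, Tef and Nfil3 stood higher under PM2.5, by 2.21 ± 0.39, 1.59 ± 0.41 and 0.66 ± 0.17 on the log2 scale, and Hlf by 0.36 ± 0.27. By edgeR 0 of 4 members passed the adjusted threshold of 0.05, as did 0% of all tested genes. At an unadjusted p under 0.05 there were 3 of 4 members, against 11.0% of all genes. Dbp held place 16 of 11316 by p, Nfil3 place 126 and Tef place 134 (edgeR adjusted p = 0.382, 0.416 and 0.416). DESeq2 called Dbp (adjusted p = 2.82e-07) and Tef (0.00145) among 151 of the 11316 genes, and not Nfil3 (0.0686). The groups did not overlap in CPM for these 3 members, and the same held for 49.4% of all genes. Tef rested on LD-PM2.5 replicate 2: it was 0.70 without that library and 2.13 without LD-PM2.5 replicate 1. Hlf, in turn, read -0.12 and 0.71 in these fits. With the muscle-rich pair left out, Dbp stood at 2.53, Tef at 1.42 and Nfil3 at 0.51.

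Constant light in filtered air, LL-FA against LD-FA, shares the LD-FA libraries with the comparison above. Dbp stood 1.43 ± 0.38 and Tef 1.0 ± 0.40 higher on the log2 scale, Hlf was at 0.12 ± 0.27 and Nfil3 at -0.29 ± 0.17. Again 0 of 4 members passed (edgeR, 0% of all genes), with 2 of 4 at an unadjusted p under 0.05, Dbp at place 41 and Tef at place 252, against 2.74% of all genes. DESeq2 called Dbp alone of the members (adjusted p = 0.0126), among 43 of all 11316 genes. Libraries of Dbp, Tef and Nfil3 did not overlap between the groups, as for 30.2% of genes. Dbp was 0.92 without LL-FA replicate 2, and 2.13 with the muscle-rich pair left out. Nfil3 was -0.44 without LD-FA replicate 1 and -0.12 without LD-FA replicate 2, while Hlf changed sign (-0.01) without LD-FA replicate 1.

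With light constant, adding PM2.5 (LL-PM2.5 against LL-FA) gave Dbp a log2 fold change of 2.82 ± 0.38, a 7.05-fold difference. Tef was at 0.81 ± 0.40, Hlf at 0.10 ± 0.27 and Nfil3 at -0.26 ± 0.17. Dbp held place 4 of 11316 by p, with an edgeR adjusted p of 0.322. So 0 of 4 members passed edgeR (0% of all genes) and 1 of 4 had an unadjusted p under 0.05, against 4.83% of all genes. DESeq2 called Dbp (adjusted p = 2.81e-13) and no other member, among 58 of all 11316 genes. The groups did not overlap for Dbp, Tef and Nfil3, as in 30.0% of genes. Dbp was 2.43 with the muscle-rich pair left out. Leaving out each library in turn, LL-PM2.5 replicate 2 with its pancreas transcripts among them, kept it between 2.42 and 3.33.

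Within PM2.5, the change of light regime (LL-PM2.5 against LD-PM2.5) set Dbp and Nfil3 apart in opposite directions. Dbp stood 2.03 ± 0.37 higher and Nfil3 1.21 ± 0.17 lower on the log2 scale (-1.21), the latter at place 3 of 11316 by p (edgeR adjusted p = 0.366). Tef was at 0.22 ± 0.40 and Hlf at -0.14 ± 0.27. By edgeR 0 of 4 passed (0% of all genes), and 2 of 4 had an unadjusted p under 0.05 (9.23% of all genes). Among 139 of all 11316 genes, DESeq2 called those 2, Dbp at an adjusted p of 1.52e-06 and Nfil3 at 6.16e-06. Both also had groups that did not overlap, as did 39.3% of genes. Tef turned on LD-PM2.5, at 1.11 without its replicate 2 and -0.31 without its replicate 1, and so did Hlf, at 0.35 and -0.49.

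Both exposures against neither, LL-PM2.5 against LD-FA, gave the widest difference of Dbp, 4.24 ± 0.41 on the log2 scale or 18.9-fold. Tef stood 1.81 ± 0.41 higher, Nfil3 was at -0.55 ± 0.17 and Hlf at 0.22 ± 0.27. Dbp held place 2 of 11316 by p, with an edgeR adjusted p of 0.0642. Thus 0 of 4 members passed edgeR (0% of all genes), and 3 of 4 had an unadjusted p under 0.05 against 6.71% of all genes. DESeq2 called Dbp (adjusted p = 1.08e-31) and Tef (5.96e-05) among 95 of all 11316 genes. The groups did not overlap for the 3 members other than Hlf, as in 36.3% of genes. Dbp passed edgeR when genes under 5 FPKM were left out (adjusted p = 0.0439), as did 2 of 6903 genes in all. It did not pass in a fit of only these groups (edgeR adjusted p = 0.163) or with replicate number in the fit (0.119). With each library left out in turn, its log2 fold change lay between 3.86 and 4.57. It was 4.56 with the muscle-rich pair left out.

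PM2.5 alone against constant light alone, LD-PM2.5 against LL-FA, compares the single exposures. Nfil3 stood 0.95 ± 0.17 higher with PM2.5 (edgeR adjusted p = 0.306, place 20), Dbp 0.78 ± 0.37, Tef 0.59 ± 0.40 and Hlf 0.24 ± 0.27. Of the members 0 of 4 passed edgeR (0% of all genes) and 1 of 4 had an unadjusted p under 0.05 (9.11% of all genes). DESeq2 called Nfil3 (adjusted p = 0.00107) among 137 of all 11316 genes. Dbp and Nfil3 had groups that did not overlap, as did 41.8% of genes. Without LD-PM2.5 replicate 2, Tef was at -0.30 and Hlf at -0.25, while leaving out LD-PM2.5 replicate 1 put Tef at 1.12. Leaving out LL-FA replicate 1 put Dbp at 0.39, and leaving out LL-FA replicate 2 put it at 1.29.

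Averaged over light, PM2.5 against filtered air put Dbp at 2.51 ± 0.27 on the log2 scale, a 5.71-fold difference, with an adjusted p of 0.0672 (place 4). All 4 PM2.5 libraries lay above all 4 filtered-air libraries for Dbp, at 9.12 FPKM or more against 9.08 or less, and 5.68% of all genes separated in this way. Tef was at 1.2 ± 0.29, Hlf at 0.23 ± 0.19 and Nfil3 at 0.20 ± 0.12. No member passed edgeR (0 of 4, against 0.0177% of all genes), and Dbp and Tef had an unadjusted p under 0.05, as did 10.0% of all genes. DESeq2 called both, at adjusted p-values of 7.18e-22 and 0.000301, among 161 of all 11316 genes. Without LL-PM2.5 replicate 1 edgeR called Dbp (2.67, adjusted p = 0.0413), and without LD-PM2.5 replicate 1 it called Tef (1.46, adjusted p = 0.0297), whereas Tef was 0.76 without LD-PM2.5 replicate 2.

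Averaged over air, constant light against the light/dark cycle put Nfil3 at -0.75 ± 0.12 and Dbp at 1.73 ± 0.27 on the log2 scale. Nfil3 had all 4 constant-light libraries at 12.6 FPKM or less and all 4 light/dark libraries at 13.7 or more, a separation seen in 3.18% of genes. Tef was at 0.61 ± 0.28 and Hlf at -0.01 ± 0.19. Without LD-PM2.5 replicate 1 Tef was at 0.35, and leaving out the other LD-PM2.5 library instead gave 1.06. None of the 4 passed edgeR (0% of all genes), with adjusted p-values of 0.190 for Dbp and 0.211 for Nfil3, whose unadjusted p was under 0.05 along with 5.66% of all genes. DESeq2 called Dbp (adjusted p = 8.16e-10) and Nfil3 (0.000124) among 92 of all 11316 genes.

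The interaction asks whether the effect of PM2.5 differed between light regimes. It was 0.61 ± 0.52 for Dbp, -0.78 ± 0.57 for Tef, -0.25 ± 0.38 for Hlf and -0.92 ± 0.24 for Nfil3, as the PM2.5 difference in constant light minus that in the light/dark cycle on the log2 scale. By edgeR and by DESeq2 0 of 4 members passed (edgeR, 0% of all genes, and DESeq2, 33 of all 11316 genes). Nfil3 alone had an unadjusted p under 0.05 (0.00557, adjusted p = 0.843), as did 4.88% of all genes. Leaving out LL-PM2.5 replicate 2 put the Dbp interaction at 0.21, and leaving out LL-FA replicate 2 put it at 1.12. Its sign changed (-0.10) with the muscle-rich pair left out, and those of Tef (0.10) and Hlf (0.22) changed without LD-PM2.5 replicate 2.

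**Figure D2:**
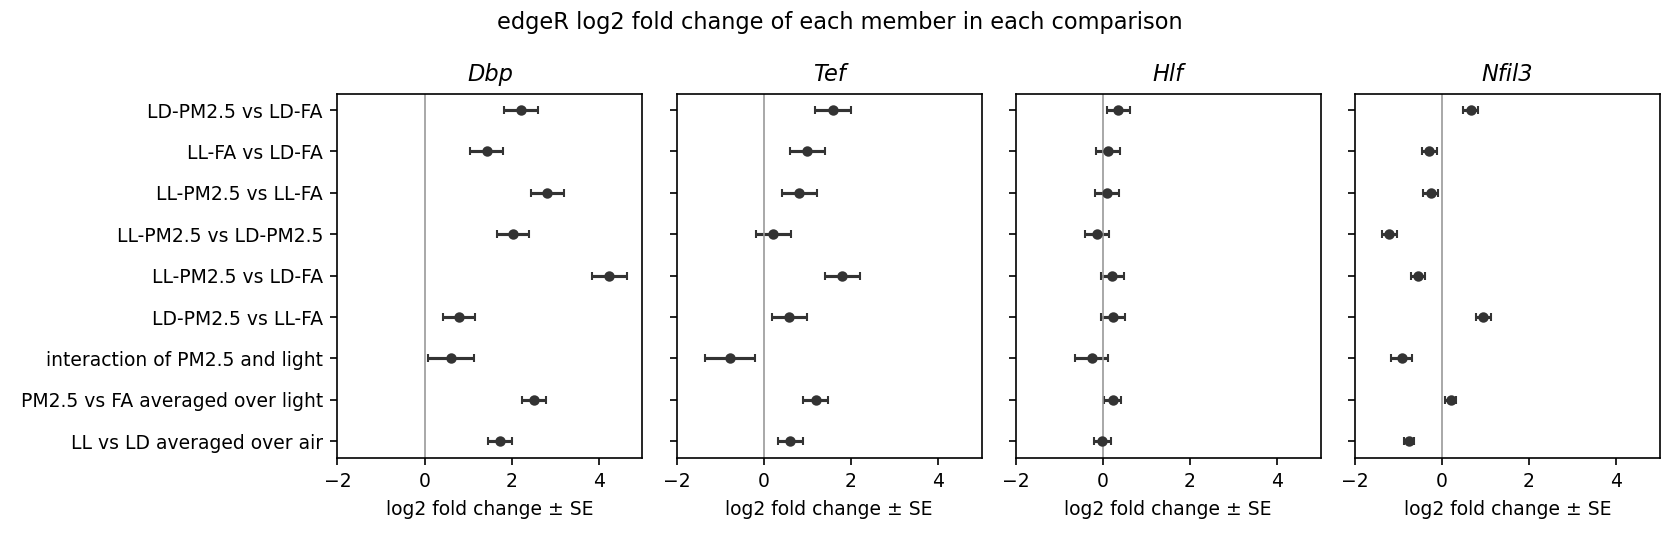
Log2 fold change (x axis, point) with its standard error (bar) from the edgeR fit for each member (panels) and each comparison (y axis), first-named group over the second. Dbp lay above 0 in every row and reached 4.24 for LL-PM2.5 against LD-FA, Hlf stayed within 0.36 of 0, and Nfil3 ran from -1.21 to 0.95.

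Because activators and repressor meet at the same element, their summed levels were set side by side as a description with no test. Dbp, Tef and Hlf together came to 16.6 and 17.7 FPKM for LD-FA, 27.7 and 31.7 for LL-FA, 29.7 and 58.2 for LD-PM2.5, and 73.4 and 84.4 for LL-PM2.5. Divided by Nfil3, LD-FA gave 1.21 and 1.05, LD-PM2.5 1.42 and 2.18, LL-FA 2.30 and 2.53, and LL-PM2.5 6.70 and 9.04. The LL-PM2.5 libraries stood above the other 6, and the LD-PM2.5 ratio was below that of LL-FA although its sum of activators was higher on average (43.9 ± 20.2 against 29.7 ± 2.84 FPKM, SD, n = 2), since Nfil3 was higher there too.

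The make-up of the activator pool differed as well. Dbp made up 16.6% and 11.6% of the summed FPKM of the 3 activators in LD-FA. Its share was 13.9% and 28.6% for LL-FA, 30.7% and 22.3% for LD-PM2.5, and 44.8% and 64.0% for LL-PM2.5. The share of Hlf went from 40.7% and 38.6% in LD-FA to 13.9% and 7.12% in LL-PM2.5. Tef held between 28.9% and 59.4% and was the largest of the 3 in all libraries except both of LL-PM2.5. These shares rest on the scaling to length in FPKM. In CPM, which is not scaled to length, Dbp made up 20.8% and 33.5% in LL-PM2.5, where Tef was then the largest, and Hlf was the largest in LD-FA (51.7% and 51.9%).

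**Figure D3:**
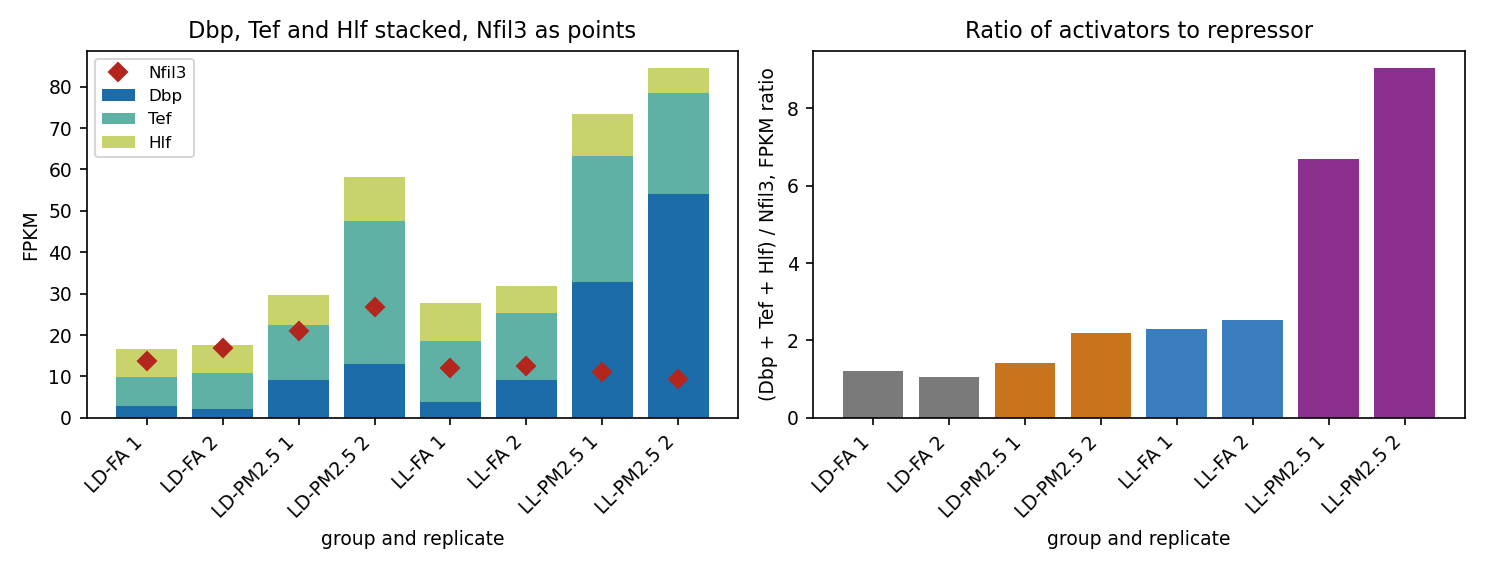
Left, FPKM of Dbp, Tef and Hlf stacked as bars and of Nfil3 as points for each library (x axis); right, the ratio of the stacked sum to Nfil3. The ratio was 6.70 and 9.04 in LL-PM2.5 and at most 2.53 in the other 6 libraries.

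The members did not share one pattern over the 8 libraries. Pearson r of log2 CPM, a description over libraries that share groups of 2, was 0.83 between Dbp and Tef, 0.73 between Tef and Hlf, and 0.27 between Dbp and Hlf. Nfil3 had an r of -0.32 with Dbp, 0.01 with Tef and 0.38 with Hlf. Among the 6443 other genes with a mean of at least 5 FPKM, 45 were closer to Dbp than Tef was.

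The gene closest to Dbp was Nr1d2 (r = 0.99), which encodes the nuclear receptor REV-ERB beta, followed by Crcp (0.95), which encodes a subunit of RNA polymerase III, and Gm6170 (0.94). Nr1d2 averaged 8.21 FPKM in LD-FA, 11.3 in LL-FA, 13.2 in LD-PM2.5 and 17.7 in LL-PM2.5, the order of Dbp over a narrower span. The most opposite gene was Thoc5 (-0.97), which encodes a part of the mRNA export complex THO. Closest to Tef were Apoa5 (0.99), an apolipoprotein that lowers plasma triglyceride, Gpat4 (0.98), an enzyme of glycerolipid synthesis, and Bnip3 (0.98), a mitochondrial outer membrane protein of mitophagy. Apoa5 averaged 320 FPKM in LD-FA, 431 in LL-FA, 564 in LD-PM2.5 and 577 in LL-PM2.5, and AI182371 was most opposite to Tef (-0.97).

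For Hlf the closest were Cpped1 (0.98), a phosphatase, Mul1 (0.97), a mitochondrial ubiquitin ligase, and Bnip2 (0.95), with Aasdhppt most opposite (-0.97). Those patterns turned on LD-PM2.5 replicate 2, the extreme library in all 5 of these genes. Closest to Nfil3 were Cpn2 (0.96), the regulatory subunit of carboxypeptidase N in plasma, Tubgcp4 (0.96), a part of the gamma-tubulin complex, and Mief1 (0.94), a mitochondrial fission factor. Tdp2, a DNA repair enzyme, was most opposite (-0.96), at 8.05 FPKM in LD-PM2.5 and 13.1 in LL-PM2.5.

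**Figure D4:**
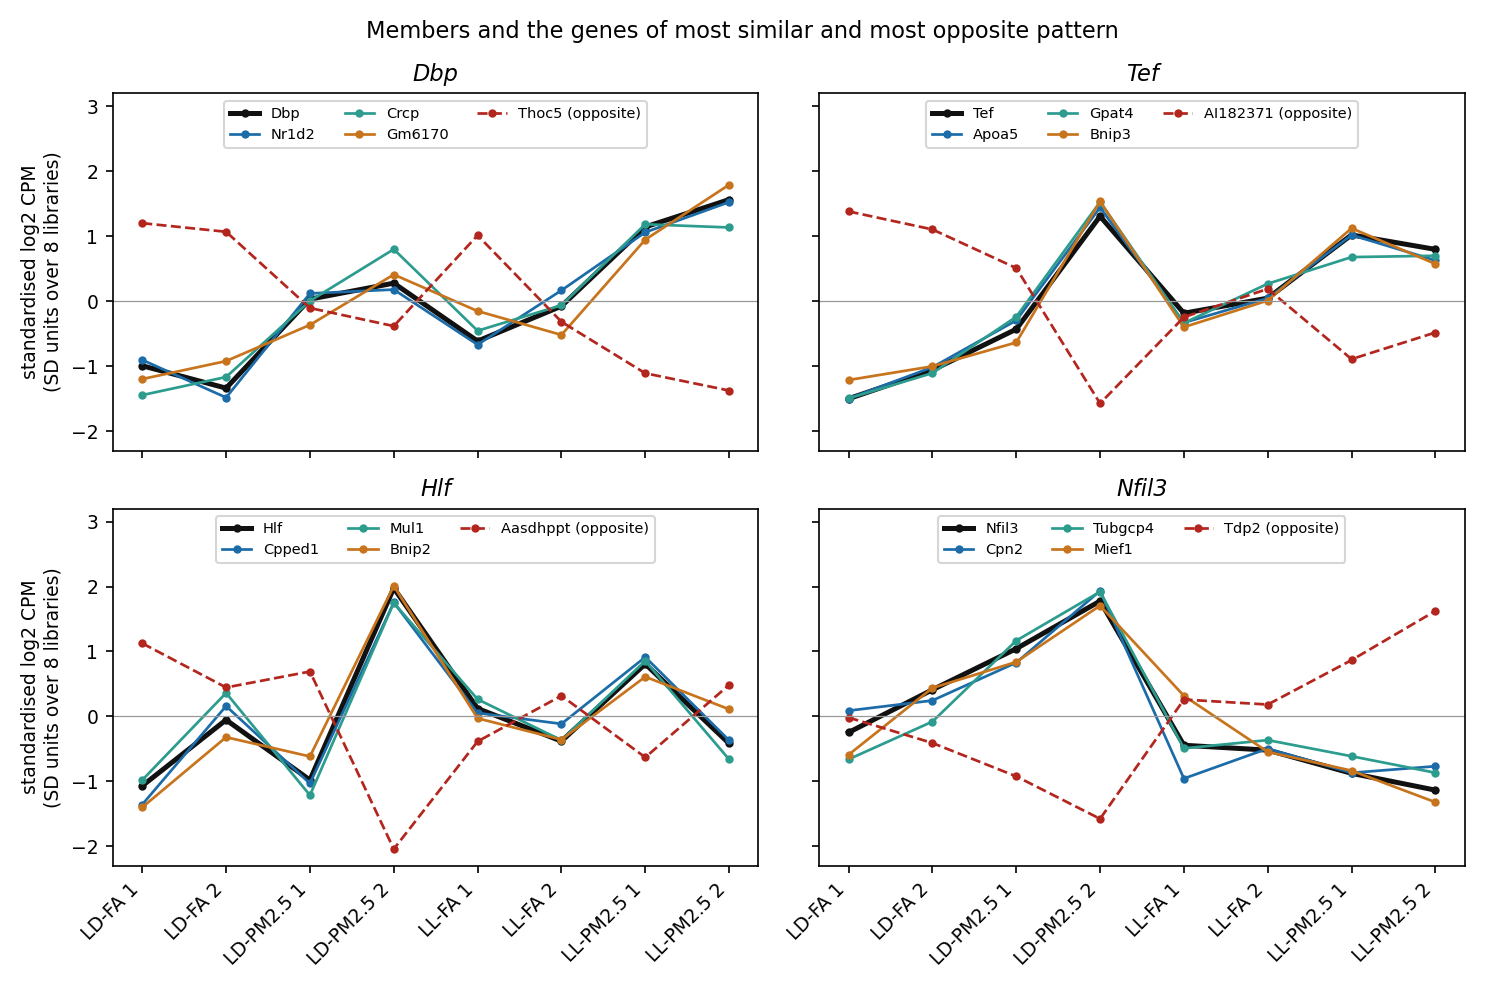
Log2 CPM of each member (black), of the 3 genes with the highest Pearson r to it (solid lines) and of the 1 with the lowest (dashed), each centred on its mean and divided by its SD over the 8 libraries (y axis, SD units; libraries on the x axis). The values of Dbp and Nr1d2 nearly coincide (r = 0.99), and LD-PM2.5 replicate 2 is the peak of Tef, Hlf and Nfil3.

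Clock genes with known or proposed D-boxes (Per1, Per2, Per3, Cry1, Nr1d1, Nr1d2 and Rora) were all tested, and edgeR called 0 of 7 in each of the 9 comparisons. In LD-PM2.5 against LD-FA all 7 had a positive log2 fold change between the groups, with a median of 0.95, the value of Cry1. Of all genes 48.4% were positive and their median was -0.01. Neither LD-PM2.5 library on its own had all 7 genes above LD-FA. Cry1 in LD-PM2.5 replicate 1 (2.85 FPKM) lay below both LD-FA libraries, and so did Nr1d1 in LD-PM2.5 replicate 2 (5.55 FPKM). In the same comparison 4 of 7 had an unadjusted p under 0.05, as did 11.0% of all genes. In constant light PM2.5 gave 6 of 7 positive with a median of 0.82, and constant light in filtered air 4 of 7 with a median of 0.19. In LL-PM2.5 against LD-PM2.5, where Dbp stood 2.03 higher, 3 of 7 were positive with a median of -0.16, and for constant light averaged over air 3 of 7 with a median of -0.07. In these comparisons with constant light, 50.1% to 51.3% of all genes were positive. Nr1d2 differed by 0.58 ± 0.17 with PM2.5 in the light/dark cycle and by 0.67 ± 0.17 in constant light. Per3, a Period gene, read 0.111 and 0.138 FPKM for LD-FA, 0.456 and 0.464 for LL-FA, 0.344 and 2.29 for LD-PM2.5, and 1.16 and 1.52 for LL-PM2.5. Its log2 fold change was 3.34 ± 0.77 with PM2.5 in the light/dark cycle and 1.53 ± 0.69 in constant light. In the promoter windows searched, Per3 was the only one of 6 such genes with the D-box.

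LD-PM2.5 replicate 2 differed from its partner in this list as it did in Tef and Hlf. It read 9.33 FPKM against 1.85 for Per2, 5.99 against 1.70 for Per1 and 15.1 against 2.85 for Cry1, and 5.55 against 52.5 for Nr1d1, which encodes REV-ERB alpha. The Dbp values of those libraries, 13.0 and 9.12 FPKM, lay closer together. What part this difference between replicates had in the values of the list was not tested.

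Of the other E-box driven regulators Ciart, Bhlhe40 and Cry2 were tested and Bhlhe41 was too low, and 0 of 3 passed edgeR in any comparison. Ciart, a repressor of CLOCK and BMAL1, was at 2.89 ± 0.91 with PM2.5 in the light/dark cycle and 1.91 ± 0.81 in constant light on the log2 scale. Its levels were low, at 0.129 and 0.145 FPKM for LD-FA and 0.198 and 1.86 for LD-PM2.5. LL-FA read 0.366 and 0.320 FPKM, and LL-PM2.5 0.968 and 1.75. Only replicate 2 of LD-PM2.5 and of LL-PM2.5 reached 1 FPKM. With PM2.5 in the light/dark cycle and in constant light, Cry2 was at 0.69 ± 0.34 and 0.32 ± 0.34, and Bhlhe40 at 0.27 ± 0.38 and 0.24 ± 0.38. With constant light in filtered air and under PM2.5, Ciart was at 1.43 and 0.45, Cry2 at 0.29 and -0.08, and Bhlhe40 at -0.55 and -0.59. The clock factors of the opposite phase described here, Arntl and Npas2, did not pass edgeR in any comparison either. Arntl, which encodes BMAL1, read 6.75 and 6.35 FPKM for LD-FA, 6.10 and 4.88 for LL-FA, 4.40 and 4.0 for LD-PM2.5, and 2.09 and 2.04 for LL-PM2.5, so its group means ran in reverse order to those of Dbp. For both exposures against neither it was at -1.64 ± 0.15 with an adjusted p of 0.0642, the same as that of Dbp. Its partner gene Npas2 was at -4.07 ± 0.93 in that comparison, with 1.17 and 1.41 FPKM in LD-FA and 0.113 and 0.0357 in LL-PM2.5.

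Of 10 genes of drug metabolism and heme synthesis linked to the PAR bZIP factors 9 were tested, Cyp2a4 being too low, and edgeR called 0 of 9 in each comparison. Their median log2 fold change was 0.18 with PM2.5 in the light/dark cycle (6 of 9 positive), 0.42 with constant light in filtered air (9 of 9 positive, where 50.1% of all genes were) and -0.12 with PM2.5 in constant light (3 of 9 positive). With PM2.5, 48.4% of all genes were positive in the light/dark cycle and 50.7% in constant light. Alas1, the first enzyme of heme synthesis, read 42.5 and 49.9 FPKM for LD-FA, 70.4 and 164 for LL-FA, 160 and 191 for LD-PM2.5, and 62.0 and 30.2 for LL-PM2.5. It was thus at 1.93 ± 0.43 with PM2.5 in the light/dark cycle and -1.33 ± 0.42 with PM2.5 in constant light, where Dbp was at 2.82. Por, which passes electrons to the cytochrome P450 enzymes, was at 1.36 ± 0.40 and 0.43 ± 0.39 in those comparisons. LL-PM2.5 replicate 2 had the lowest value of all libraries for Nr1i3 (the drug receptor CAR, 17.7 FPKM), Cyp2c37 (98.2) and Aldh1a1 (374), and the highest for Dbp.

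Genes of the PPARa arm of fatty acid handling, linked to the PAR bZIP factors through acyl-CoA thioesterases, were all tested, and 0 of 7 passed edgeR in any comparison. The median was 0.29 with PM2.5 in the light/dark cycle (5 of 7 positive), 0.92 with constant light in filtered air (7 of 7) and 0.07 with PM2.5 in constant light (4 of 7). Of all genes 48.4%, 50.1% and 50.7% were positive in that order. Acot3, a peroxisomal thioesterase, had the smallest p of the list in the first 3 comparisons, with 1.88 ± 0.45, 1.57 ± 0.45 and 1.17 ± 0.42 on the log2 scale in that order. It read 0.542 and 0.771 FPKM for LD-FA, 2.24 and 1.61 for LL-FA, 1.39 and 3.49 for LD-PM2.5, and 4.46 and 4.07 for LL-PM2.5, and its group means had the order of those of Dbp and Tef. Ppara, the receptor itself, was at 1.39 ± 0.49 with PM2.5 in the light/dark cycle and 0.25 ± 0.48 in constant light.

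C/EBP factors, bZIP proteins that bind elements close to the D-box, were tested in 5 of 5 cases and 0 of 5 passed edgeR in any comparison. Cebpa, the most abundant of these in liver, stayed between 152 and 231 FPKM. Cebpd, induced in inflammation, stood at 2.46 FPKM in LD-PM2.5 replicate 2 and between 0.987 and 1.44 in the other 7 libraries, and Cebpb at 226 against 46.9 to 114. The median of the 5 was 0.45 with PM2.5 in the light/dark cycle and 0.01 in constant light.

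**Figure D5:**
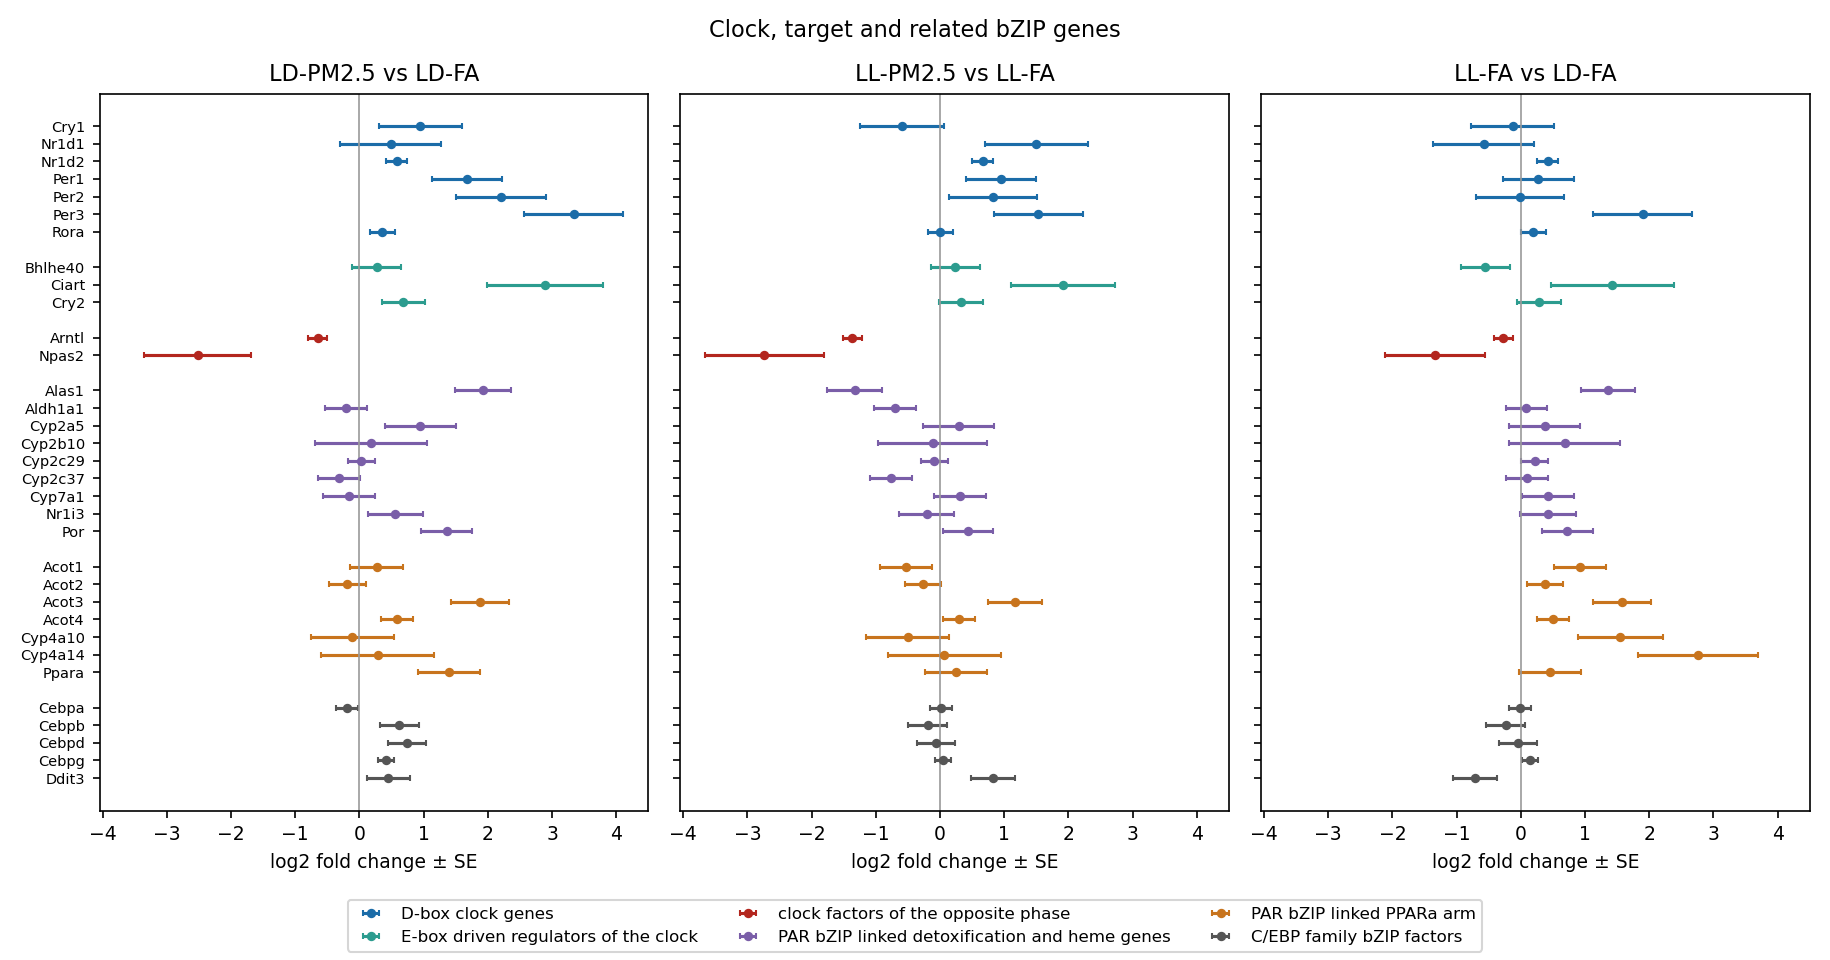
Log2 fold change with its standard error (x axis, one scale for all panels) of genes of the 6 lists (y axis, coloured by list) for LD-PM2.5 against LD-FA, LL-PM2.5 against LL-FA, and LL-FA against LD-FA. The D-box clock genes were positive in 7 of 7, 6 of 7 and 4 of 7 cases, and Alas1 lay at 1.93, -1.33 and 1.36 in that order.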

How the data were processed

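Per the submitters' processing notes, reads were handled with STAR, Cufflinks and Cuffdiff on mm10. Versions, options and annotation: not given in the sources used here. In the deposited table the authors give, per the file headers, an estimated count of fragments and an FPKM value for each gene and library. Fragments above 0 were within 0.01 of whole in 97.4% of cases, and all were rounded. Genes with a status other than OK in any library (47 genes, 1.07% of fragments, no member) were dropped, and 48051 of 48432 IDs matched a symbol, ignoring ID versions. Entries sharing a symbol were added.

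Genes reaching 1 FPKM in 2 or more libraries were tested with the edgeR quasi-likelihood test (edgeR 4.0.16, R 4.3.3, TMM scaling), with 4 group means over 8 libraries and Benjamini-Hochberg adjustment over all 11316 genes, two-sided, threshold 0.05. SE is the log2 fold change over the square root of F. Alternatives used DESeq2 1.42.0 and limma 3.58.1. The script was tested on simulated data. Named genes are the 4 members, the 3 genes of highest and 1 of lowest Pearson r of log2 CPM (prior count 2) with each, and up to 3 genes of smallest p per list; Cry1, Per1, Per2, Nr1d1, Nr1i3, Cyp2c37, Aldh1a1, Cebpa, Cebpb and Ppara are named outside that rule in some sentences, after their values were seen. Of the clock factors of the opposite phase, 1 gene is not reported here. Members and lists were chosen with earlier results of these data known. Python 3.11.15 and matplotlib 3.10.9 drew the figures.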

Additional observations from a re-analysis of the deposited data

Results flagged for a closer look

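Nfil3 is singled out because its libraries with and without PM2.5 stood in opposite order in the 2 light regimes. Both LD-PM2.5 libraries (20.9 and 26.7 FPKM) lay above both LD-FA libraries (13.7 and 16.8), and both LL-PM2.5 libraries (11.0 and 9.34) lay below both LL-FA libraries (12.0 and 12.6). Groups also failed to overlap in CPM for 49.4% of all genes in the first pair and 30.0% in the second. The share of genes with such a reversal was not counted. In constant light the difference of Nfil3 was small, -0.26 ± 0.17 on the log2 scale (edgeR, unadjusted p = 0.167), against 0.66 ± 0.17 in the light/dark cycle. The difference of the effects was -0.92 ± 0.24 on the log2 scale (edgeR, unadjusted p = 0.00557, adjusted p = 0.843), so it did not pass the test. It lay between -1.09 and -0.74 when each library was left out in turn, and was -0.75 with the muscle-rich pair of libraries (LD-FA replicate 1, LL-FA replicate 1) left out.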

How the results depend on the processing

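edgeR called 0 of 4 members in each of the 9 comparisons. So did edgeR with median-of-ratios scaling and limma at pseudocounts of 1 and 0.1. Fits of only the groups compared called 0 for each pair of groups. DESeq2 called 2 members for LD-PM2.5 against LD-FA, for LL-PM2.5 against LD-PM2.5 or LD-FA, and for both averages, and 1 for each other pair of groups. With no filter on low values (23030 genes) edgeR called 3 for LD-PM2.5 against LD-FA and for the average over air, and 2 in each of the other comparisons except the interaction (0). With at least 5 FPKM it called 1 (Dbp) for both exposures against neither. Leaving out 1 library gave 0 to 1 for LD-PM2.5 or LL-PM2.5 against LD-FA and for the average over light. The cause was not tested. Over all genes, DESeq2 called 33 to 161 per comparison and edgeR without the filter 201 to 696, against 0 to 2.

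Of 600 fold changes of members under alternatives, 544 kept their direction and side of the threshold, 36 passed it newly and 20 changed sign: 16 of Hlf, 3 of Tef, 1 of Dbp and 0 of Nfil3. Leaving out 1 library in turn moved the value of Hlf between -0.12 and 0.71 for LD-PM2.5 against LD-FA, -0.013 and 0.27 for LL-FA against LD-FA, -0.084 and 0.27 for LL-PM2.5 against LL-FA, -0.49 and 0.35 for LL-PM2.5 against LD-PM2.5, and -0.25 and 0.58 for LD-PM2.5 against LL-FA. Its range was -0.61 to 0.22 in the interaction, -0.0084 to 0.40 averaged over light, and -0.18 to 0.24 averaged over air. The last of these was 0.0037 and 0.0028 with limma at pseudocounts of 1 and 0.1, and 0.013 with the replicate block. Tef ranged from -0.31 to 1.11 for LL-PM2.5 against LD-PM2.5, -0.30 to 1.12 for LD-PM2.5 against LL-FA, and -1.32 to 0.10 in the interaction. Both ends came from leaving out 1 of the LD-PM2.5 libraries, except for LL-FA against LD-FA and LL-PM2.5 against LL-FA. With the muscle-rich pair (LD-FA replicate 1, LL-FA replicate 1) left out, Hlf was at -0.094 for LL-FA against LD-FA and the Dbp interaction at -0.10.

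With the replicate number as a replicate block, edgeR again called 0 of 4 members in each comparison. Deviations of same-numbered libraries from their group means correlated between -0.59 and 0.33 over the 6 pairs of groups. At equal CPM, however, the FPKM of Hlf was 1.21 to 1.33 times higher in replicate 1 of every group. Whether the replicates were prepared or sequenced differently is not stated in the sources used here, and a factor shared by replicate number was not excluded. In CPM, which is not scaled to length, the ratio of activators to Nfil3 averaged 2.35 for LD-FA, 3.14 for LD-PM2.5, 4.47 for LL-FA and 10.1 for LL-PM2.5, in the order of FPKM. LD-PM2.5 read 2.30 and 3.97 against 2.39 and 2.32 in LD-FA, so these groups overlapped in CPM though not in FPKM. With 2 libraries a group the median SE of a log2 fold change was 0.19.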
